A study of Homo sapiens with 6 samples.

Results

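The genes described here encode the ligands, receptors and regulators of Wnt signalling, read from poly(A) RNA-seq of human HEK293T cells. They were chosen by gene symbol: the WNT, FZD, DKK, SFRP, DVL and TLE families and 18 further named genes, with at least 10 counts summed over the libraries. Of 56832 rows in the count tables, 62 matched and 58 held enough counts. WNT1 had no count in any library, and DKK4, WNT2 and FZD10 had 1, 6 and 3 counts in all. Of the 58 members, 54 passed the filter on low counts and were tested. Both groups consisted of HEK293T cells, an embryonic kidney line, that lack a working GLO1 gene. Its product, glyoxalase 1, starts the detoxification of methylglyoxal (MGO), a reactive by-product of glycolysis. The untreated group held 3 libraries, numbered 1, 2 and 4, and the MGO group held 3 libraries, numbered 1, 3 and 4, from cells given 0.2 mM MGO overnight. The series title concerns histone H3 glycation and the promoter mark H3K4me3, and the comparison asks how transcripts of the knockout cells differ with MGO. The labels do not say whether the knockout line was 1 clone or whether libraries came from separate cultures, and the spread behind each p-value may be technical.

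Wnt proteins are secreted lipid-modified ligands. They bind a Frizzled receptor together with the co-receptor LRP5 or LRP6 and recruit Dishevelled, which blocks a complex of Axin, APC and GSK3 that otherwise marks beta-catenin for destruction. Stabilised beta-catenin enters the nucleus, joins TCF/LEF factors in place of Groucho/TLE corepressors and switches on targets, several of which (AXIN2, NKD1, RNF43, ZNRF3) feed back on the pathway. Other ligands, WNT5A and WNT11 among them, are best known for beta-catenin-independent signalling through planar polarity and related routes. HEK293T cells are widely used as a host for reporters of beta-catenin signalling.

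Library totals were 41002134 to 45910040 counts in untreated and 19195920 to 21544749 in MGO, so depth and treatment cannot be told apart. The GLO1 transcript stood at 46.2 to 51.0 CPM in untreated and 134 to 145 CPM in MGO libraries (1969 to 2365 and 2434 to 3048 counts), a log2 fold change of 1.55 (edgeR adjusted p = 6.96e-25). Wild-type cells were not analysed here, and a gene total cannot show a small lesion. Mitochondrial transcripts took 4.20% to 5.42% of counts in untreated and 5.34% to 8.17% in MGO libraries, highest in library 1 of each group (two-sided exact permutation p = 0.2), and the part of this in the results was not tested. Of 12 markers of the HEK293 lineage all were detected, 9 lower and 3 higher in MGO. Of the 12, 7 fell at least 2-fold and 3 at least 4-fold, against 16.7% and 3.76% of all genes. Their log2 fold changes centred on -1.20 (median), beside 0.01 for all genes. The summed level rose, from 1514 to 1567 CPM in untreated to 1689 to 1704 CPM in MGO libraries, so the sum does not show the direction of most markers. Markers of blood cells were at or near 0 (CD68 at 0 in every library, sums of 0.129 to 0.663 CPM), and endothelial markers summed to 1.27 to 1.75 CPM in untreated and 0.752 to 1.24 CPM in MGO libraries. Of 6 markers of mature tubules UMOD was at 0 in every library, LRP2 fell (log2 fold change -1.11) and CUBN and AQP1 rose (1.81 and 1.85), and the list summed to 21.4 to 22.1 CPM in untreated and 9.79 to 12.8 CPM in MGO libraries. The fibroblast list summed to 27.2 to 27.9 CPM in untreated and 11.9 to 13.8 CPM in MGO libraries, with COL1A1 its largest part and COL1A2 at 0 in every library. The part of these lists in the results was not tested. Levels below are CPM, counts per 1e6 counts of the library after TMM scaling for composition. A fold change is MGO over untreated, relative to the rest of the library.

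Most Wnt members were lower in MGO. Of the 54 tested, 41 fell, 10 rose and 3 did not pass (edgeR quasi-likelihood test, adjusted p under 0.05). Across all genes tested, 83.1% were called, 41.2% as lower and 41.8% as higher, so the count of called members is read against a background in which most genes moved. For 41 members every MGO library lay below every untreated one, for 8 above, and for 5 the groups overlapped. Over all genes, MGO lay below in 41.7%, and groups were apart in either direction in 83.5%. Falls of at least 2-fold were called for 22 members (40.7% of those tested, against 16.7% of all genes), and rises of at least 2-fold for 2 members (19.8% of all genes were called so). Falls of at least 4-fold were called for 10 members, against 3.76% of all genes. The median log2 fold change was -0.77 over the members and 0.01 over all genes. Without both libraries numbered 1, 40 members were lower and 8 higher. In bulk RNA, fewer cells expressing a gene and less RNA per cell cannot be told apart. The plot of fold changes by role shows the largest falls among ligands, receptors and secreted antagonists.

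**Figure D1:**
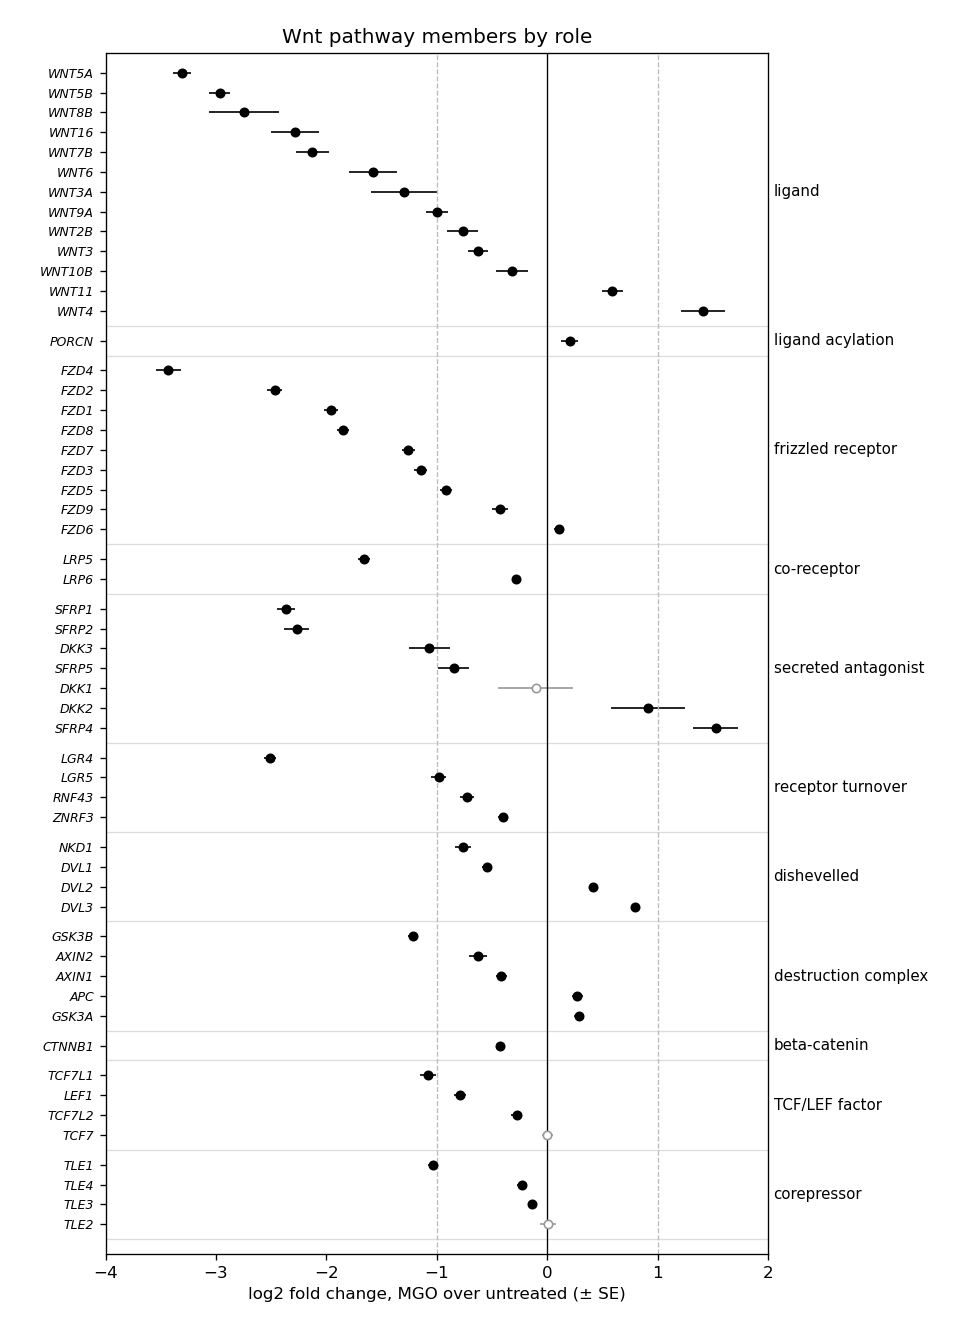
Log2 fold change in MGO over untreated for the 54 tested members, grouped by role, with bars for the standard error. Filled points passed the edgeR test at an adjusted p under 0.05, open points (DKK1, TCF7, TLE2) did not, and dashed lines mark 2-fold changes. FZD4 (-3.43) and WNT5A (-3.31) lie farthest to the left and SFRP4 (1.52) farthest to the right.

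Of 17 ligand genes with enough counts, 13 were tested, and 11 of these fell while WNT11 and WNT4 rose (median log2 fold change -1.30). WNT5A (chr3:55465715-55490539, minus strand, hg38), the prototype ligand of beta-catenin-independent signalling, stood at 40.5, 42.7 and 41.5 CPM in untreated libraries 1, 2 and 4 and at 3.76, 3.76 and 4.94 CPM in MGO libraries 1, 3 and 4. The groups lay far apart, a log2 fold change of -3.31 (SE 0.0818, edgeR adjusted p = 4.92e-26), or 9.92-fold lower. Its close relative WNT5B (chr12:1529891-1647243) stood at 24.5, 24.9 and 24.2 CPM in untreated and 3.21, 3.76 and 2.52 CPM in MGO libraries (log2 fold change -2.97, SE 0.0952, edgeR adjusted p = 4.04e-23). Both relatives therefore fell by similar amounts, and no MGO library came near an untreated one. WNT16, a ligand studied in bone and skin, went from 2.85, 2.82 and 3.24 CPM to 0.663, 0.376 and 0.760 CPM (log2 fold change -2.28, SE 0.219, edgeR adjusted p = 4.65e-11). It was a low gene, with 7 to 16 counts in the MGO libraries.

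The other ligand genes that fell at least 2-fold were WNT8B (log2 fold change -2.75), WNT7B (-2.13), WNT6 (-1.58), WNT3A (-1.30) and WNT9A (-1.0002). WNT9A lay at the 2-fold line (SE 0.101), and its log2 fold change ranged from -1.18 to -0.92 over the alternative settings. WNT8B, a brain ligand, held 69, 73 and 68 counts in untreated and 6, 3 and 4 in MGO libraries. WNT3A, the ligand most used to activate beta-catenin in the laboratory, was scarce, at 1.06, 1.04 and 1.24 CPM in untreated and 0.442, 0.644 and 0.285 CPM in MGO libraries. WNT2B (-0.77), WNT3 (-0.63) and WNT10B (-0.32, edgeR adjusted p = 0.0426) fell less. The WNT10B call was lost in 13 of 20 alternative settings. Among them were those without untreated library 1 (adjusted p = 0.138), untreated library 2 (0.0624) or MGO library 4 (0.120), and DESeq2 (0.153). Exons of WNT2B overlap those of ST7L on the other strand over 21.2% of their length, and ST7L rose (log2 fold change 1.82), so with the strand setting unknown the WNT2B values are uncertain.

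The ligands that rose were WNT11 and WNT4, whose library values were picked out after they were seen. WNT11, which acts in cell movement and kidney branching, stood at 6.12, 6.08 and 5.54 CPM in untreated and 7.96, 8.91 and 9.79 CPM in MGO libraries (log2 fold change 0.59, SE 0.0958, edgeR adjusted p = 1.57e-06). WNT4, which drives formation of kidney tubules, rose from 0.862, 0.940 and 0.799 CPM to 2.43, 2.63 and 1.95 CPM (log2 fold change 1.41, edgeR adjusted p = 1.41e-07). For both, every MGO library lay above every untreated one. On a scale corrected for gene length (RPKM, over the union of annotated exons), WNT5B and WNT5A led the ligands in untreated cells at 5.70 and 5.62 RPKM, with library values that overlapped between them. In MGO the same genes stood at 0.734 and 0.561 RPKM, and WNT11 led at 3.70 RPKM, above WNT3 at 1.82 RPKM in every library. Thus WNT11 went from 9.86% to 34.4% of the summed ligand RPKM. The 4 untested ligands, WNT7A, WNT8A, WNT9B and WNT10A, held 0 to 8 counts in a library.

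PORCN, the enzyme of the endoplasmic reticulum that adds the lipid every Wnt needs for secretion, stood at 11.3, 10.9 and 9.79 CPM in untreated and 12.3, 12.6 and 12.2 CPM in MGO libraries. That was a small rise (log2 fold change 0.20, SE 0.0786, edgeR adjusted p = 0.0190). The call was lost without untreated library 4 (adjusted p = 0.125) and without MGO library 1 (0.0513), 3 (0.108) or 4 (0.0686). With library size as the only scaling the change was 0.10 (adjusted p = 0.251), and with no low-count filter 0.02 (0.843).

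Among the 9 Frizzled receptors, the membrane proteins that bind Wnt ligands, 8 fell, 6 of them at least 2-fold, and FZD6 was slightly higher (median log2 fold change -1.26). The sequences upstream of 2 of the receptors that fell, of the co-receptor LRP5 and of DVL3, which rose, are shown because these members moved in opposite directions and have a single listed start. They come from RefSeq on GRCh38.p14, run 5′ to 3′ along the gene's strand and stop before the first annotated exon, and capitals mark CpG dinucleotides.
FZD1 (chr7:91264183-91264363, plus strand): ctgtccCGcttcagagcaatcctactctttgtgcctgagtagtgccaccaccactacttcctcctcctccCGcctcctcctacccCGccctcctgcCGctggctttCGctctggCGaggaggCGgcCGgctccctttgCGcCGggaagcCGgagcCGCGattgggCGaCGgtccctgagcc
FZD8 (chr10:35642297-35642546, minus strand): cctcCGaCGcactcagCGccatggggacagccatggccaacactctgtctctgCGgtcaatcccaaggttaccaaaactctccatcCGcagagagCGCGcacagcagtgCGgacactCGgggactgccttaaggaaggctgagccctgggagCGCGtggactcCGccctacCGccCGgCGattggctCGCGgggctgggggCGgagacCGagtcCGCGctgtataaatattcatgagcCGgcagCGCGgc
LRP5 (chr11:68312341-68312590, plus strand): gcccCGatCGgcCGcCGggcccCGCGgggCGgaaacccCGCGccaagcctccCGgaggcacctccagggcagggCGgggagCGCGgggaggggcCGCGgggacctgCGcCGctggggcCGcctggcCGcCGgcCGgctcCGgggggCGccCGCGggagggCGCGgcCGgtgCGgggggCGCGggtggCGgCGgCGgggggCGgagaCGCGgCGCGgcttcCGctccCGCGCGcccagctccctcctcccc
DVL3 (chr3:184155127-184155310, plus strand): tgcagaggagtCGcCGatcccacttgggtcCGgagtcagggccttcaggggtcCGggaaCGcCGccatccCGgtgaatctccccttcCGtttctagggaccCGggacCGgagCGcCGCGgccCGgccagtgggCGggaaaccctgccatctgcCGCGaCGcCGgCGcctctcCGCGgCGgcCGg
Over the whole promoter window of 300 bases (250 before to 50 after the start), FZD1, FZD8, LRP5 and DVL3 held 25, 31, 52 and 43 CpG. The median was 27 over the 7653 tested genes with a single listed start. The TCF/LEF core CTTTGA, searched on both strands, was in none of the 4 windows and in 8.44% of those 7653.

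FZD4 (chr11:86945679-86955391, minus strand), known as the Norrin receptor of retinal vessels as well as a Wnt receptor, fell most of all members. It stood at 16.8, 16.4 and 16.1 CPM in untreated and 1.44, 1.83 and 1.33 CPM in MGO libraries (log2 fold change -3.43, SE 0.116, edgeR adjusted p = 1.65e-22), the latter from 26 to 34 counts. Its exons overlap those of PRSS23 on the other strand over 1399 bases, and PRSS23 also fell (log2 fold change -1.71), so the share of reads from each gene is uncertain without the strand setting. FZD2 (chr17:44557459-44559570) went from 43.5, 42.7 and 41.8 CPM to 7.07, 8.21 and 7.79 CPM (log2 fold change -2.47, SE 0.0677, edgeR adjusted p = 6.86e-25). FZD1 (chr7:91264364-91271326) went from 60.0, 57.6 and 57.2 CPM to 13.3, 16.7 and 14.97 CPM (log2 fold change -1.96, SE 0.0609, edgeR adjusted p = 1.74e-23). Each of these receptors was several-fold lower in every MGO library than in any untreated one. FZD8 (chr10:35638249-35642278), the most counted Frizzled, went from 70.5, 70.7 and 70.5 CPM to 17.5, 20.8 and 20.4 CPM (log2 fold change -1.85, SE 0.0546, edgeR adjusted p = 4.70e-24).

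Smaller falls were measured for FZD7, a close relative of FZD1 and FZD2 (log2 fold change -1.26), for FZD3, which guides axons (-1.15), for FZD5 (-0.92) and for FZD9 (-0.43). FZD6, best known in planar polarity and singled out after its values were seen, stood apart at 42.3, 43.0 and 45.9 CPM in untreated and 45.8, 46.4 and 49.1 CPM in MGO libraries. Its groups overlapped, and its small rise (log2 fold change 0.11, edgeR adjusted p = 0.0409) was lost without untreated library 1 (adjusted p = 0.200) or 2 (0.158), or MGO library 3 (0.146) or 4 (0.503). With looser filters on low counts its sign turned. By RPKM the order in untreated cells was FZD2 (20.2), FZD8 (17.5), FZD7 (11.3), FZD6 (10.8) and FZD1 (8.37), of which FZD7 and FZD6 overlapped between libraries. In MGO cells FZD6 led at 11.6 RPKM, followed by FZD8 (4.85), FZD7 (4.75), FZD9 (4.32) and FZD2 (3.64), and the 3 genes after FZD6 overlapped. FZD6 thus held 12.5% of the summed Frizzled RPKM in untreated and 31.6% in MGO cells.

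**Figure D2:**
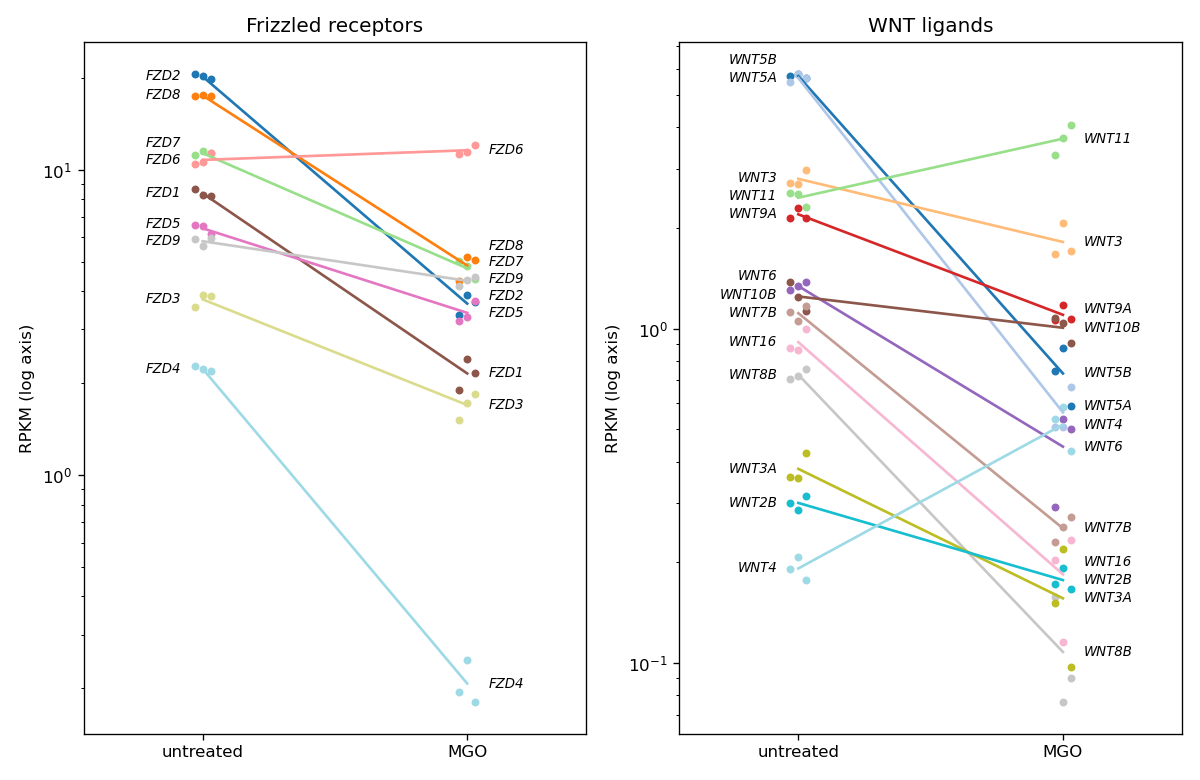
Levels of the 9 Frizzled genes (left) and the 13 tested WNT genes (right) in RPKM on log axes, with a point for each library and lines joining the group means. FZD6 stays near 11 RPKM while the genes that were above it fall below it, and WNT11 becomes the highest ligand as WNT5A and WNT5B drop.

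The co-receptors LRP5 and LRP6, which bind Wnt beside Frizzled and carry the signal to Axin, both fell, but to different extents. LRP5 (chr11:68312609-68449275) went from 58.4, 58.0 and 59.0 CPM to 20.004, 18.2 and 17.6 CPM (log2 fold change -1.66, SE 0.0543, edgeR adjusted p = 7.13e-23). LRP6 (chr12:12116025-12267012) went from 72.2, 74.1 and 73.9 CPM to 61.6, 58.9 and 61.0 CPM (log2 fold change -0.28, SE 0.0412, edgeR adjusted p = 3.11e-07). Library scaling does not touch the ratio of LRP6 to LRP5 counts, which went from 1.24, 1.28 and 1.253 to 3.08, 3.24 and 3.47.

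Receptor turnover genes all fell. RNF43 and ZNRF3 are ubiquitin ligases that remove Frizzled from the surface, and LGR4 and LGR5 are the receptors for R-spondins, which hold those ligases off. LGR4 (chr11:27365961-27472775, minus strand) went from 78.4, 77.8 and 77.3 CPM to 12.3, 14.1 and 14.5 CPM, and its edgeR adjusted p, 4.48e-27, was the smallest among members (log2 fold change -2.51, SE 0.0564). LGR5, a stem cell marker in gut and a beta-catenin target, went from 22.5, 23.6 and 23.9 CPM to 11.4, 11.9 and 12.1 CPM (log2 fold change -0.98, SE 0.0667, edgeR adjusted p = 1.14e-14). RNF43 went from 24.6, 25.8 and 25.2 CPM to 14.1, 15.8 and 15.7 CPM (log2 fold change -0.73, SE 0.0633, edgeR adjusted p = 4.64e-12), and ZNRF3 fell by 0.40 on the log2 scale. The receptors thus showed larger falls than the ligases. An annotated read-through gene on the same strand covers 57.6% of the length of the RNF43 exons, and an antisense gene covers 20.3%. Neither has a row under its symbol in the count tables. SUPT4H1, which has a row and rose, covers 1.91% of those exons, so RNF43 values are uncertain.

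Of 7 secreted antagonists, 4 fell, 2 rose and DKK1 did not pass. SFRP proteins bind Wnt ligands outside the cell, and DKK1 and DKK2 bind LRP5 and LRP6. SFRP1 went from 36.8, 38.6 and 34.8 CPM to 8.34, 6.07 and 6.98 CPM (log2 fold change -2.37, SE 0.0793, edgeR adjusted p = 2.45e-22). SFRP2 went from 10.8, 10.9 and 11.9 CPM to 2.21, 2.15 and 2.57 CPM (log2 fold change -2.27, SE 0.115, edgeR adjusted p = 5.76e-18). Both fell about as far as the Frizzled genes FZD1 and FZD2, whereas SFRP4 moved the other way. It rose from 0.949, 1.00 and 0.775 CPM to 3.43, 1.93 and 2.57 CPM (log2 fold change 1.52, SE 0.207, edgeR adjusted p = 6.26e-08), still a low level. DKK3 (log2 fold change -1.07) and SFRP5 (-0.85) fell. DKK2 was higher in MGO from 10 to 25 counts a library (log2 fold change 0.91, edgeR adjusted p = 0.0137), with overlapping groups. That call was lost without untreated library 1 (adjusted p = 0.0572) or 4 (0.0518), or MGO library 1 (0.0725) or 3 (0.106). DKK1, itself a beta-catenin target, ranged from 0.712 to 0.963 CPM in untreated and from 0.215 to 1.19 CPM in MGO libraries (log2 fold change -0.10, SE 0.341, edgeR adjusted p = 0.784). With 4 to 25 counts in the MGO libraries, only a large change of DKK1 was detectable.

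**Figure D3:**
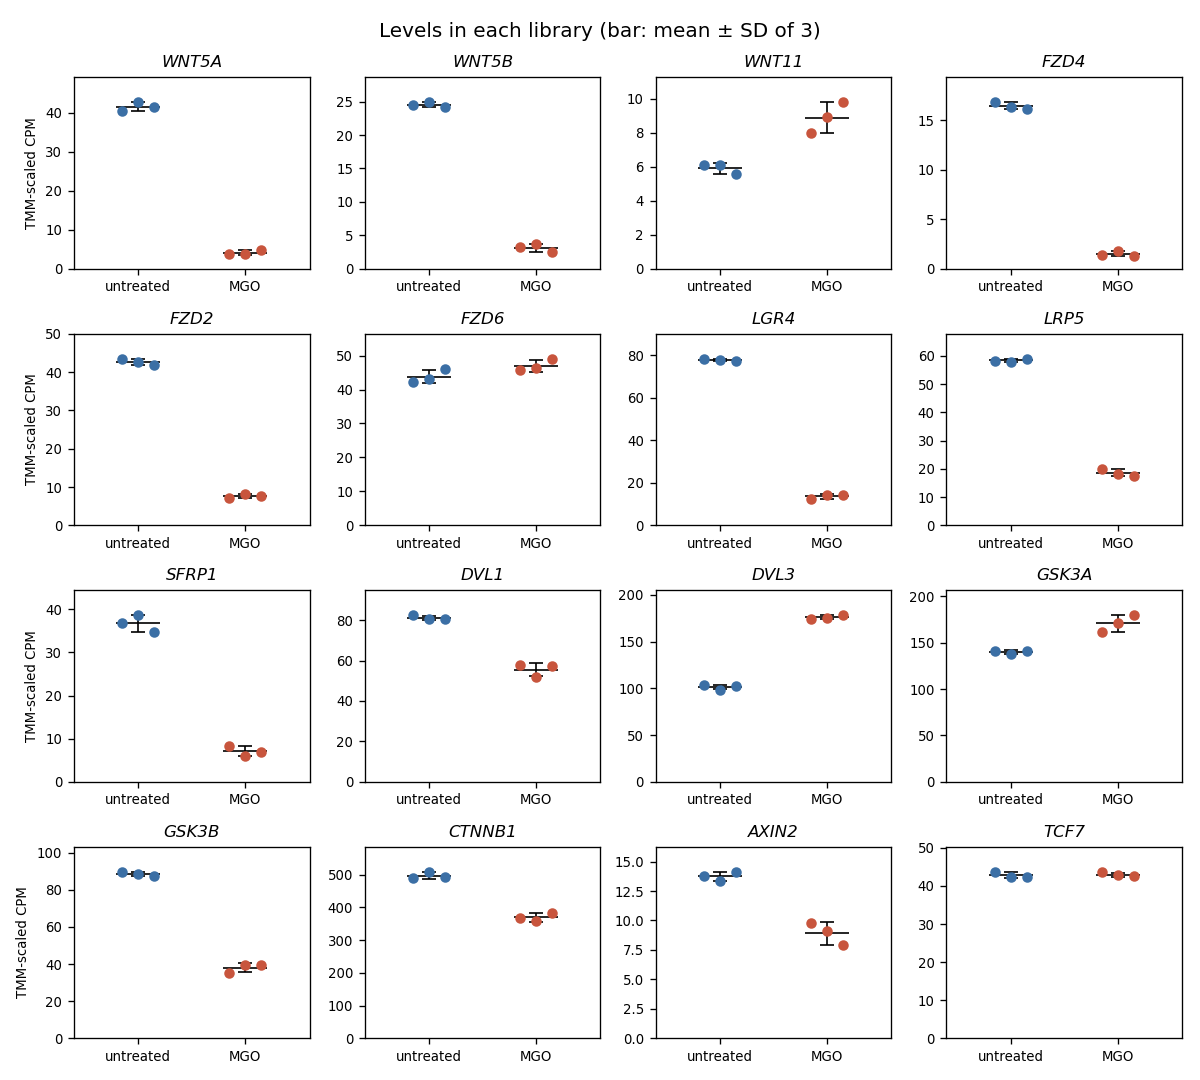
TMM-scaled CPM of 16 members in each library (points), with the mean and SD of the 3 libraries of a group (bars) and axes from 0. WNT5A, WNT5B, FZD4, FZD2, LGR4, LRP5, SFRP1 and GSK3B separate widely, DVL3, GSK3A and WNT11 are higher in MGO, and TCF7 and FZD6 overlap.

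The Dishevelled genes, whose products relay the signal from Frizzled, split. DVL1 (chr1:1335276-1349350) fell from 82.4, 80.5 and 80.7 CPM to 57.6, 51.7 and 57.1 CPM (log2 fold change -0.55, SE 0.0439, edgeR adjusted p = 6.33e-13). DVL3 (chr3:184155311-184173614) rose from 103, 98.7 and 102 CPM to 174, 175 and 178 CPM (log2 fold change 0.80, SE 0.0378, edgeR adjusted p = 1.15e-18). Groups did not overlap for either gene. DVL2 rose too (log2 fold change 0.42), and by RPKM the order went from DVL1, DVL2, DVL3 (21.3, 18.8 and 15.9 RPKM) to its reverse (14.5, 25.1 and 27.6 RPKM). Counts of DVL3 over DVL1 were 1.253, 1.23 and 1.27 in untreated and 3.02, 3.39 and 3.12 in MGO libraries. NKD1, an antagonist that binds Dishevelled and is a beta-catenin target, fell from 16.9, 16.4 and 16.4 CPM to 10.1, 9.13 and 10.0 CPM (log2 fold change -0.76, SE 0.0735, edgeR adjusted p = 4.99e-11).

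In the destruction complex, 3 members fell and 2 rose. GSK3B (chr3:119821323-120094417), a kinase that phosphorylates beta-catenin for destruction, fell from 89.8, 88.3 and 87.7 CPM to 35.4, 39.7 and 39.2 CPM (log2 fold change -1.22, SE 0.0459, edgeR adjusted p = 2.92e-21). Its paralog GSK3A (chr19:42230186-42242625), which can stand in for it, rose from 141, 138 and 141 CPM to 162, 171 and 180 CPM (log2 fold change 0.29, SE 0.0401, edgeR adjusted p = 1.12e-07). The ratio of GSK3A to GSK3B counts went from 1.57, 1.56 and 1.61 in untreated to 4.57, 4.31 and 4.58 in MGO libraries, with no overlap. The scaffold AXIN1 went from 51.9, 52.0 and 51.6 CPM to 35.3, 39.8 and 41.2 CPM (log2 fold change -0.42, SE 0.0505, edgeR adjusted p = 7.55e-09). AXIN2, the inducible scaffold most often used to read out beta-catenin activity, went from 13.8, 13.3 and 14.1 CPM to 9.78, 9.07 and 7.89 CPM (log2 fold change -0.63, SE 0.0819, edgeR adjusted p = 2.76e-08). Exons of other annotated genes on the same strand cover 25.2% of AXIN2 and 11.6% of GSK3A exon length. Those genes have no row under their symbols in the count tables, so the values of AXIN2 and GSK3A are uncertain. The tumour suppressor APC rose slightly (log2 fold change 0.27), a call lost with no low-count filter (0.09, adjusted p = 0.117).

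CTNNB1 (chr3:41194741-41260096), which encodes beta-catenin, was the most counted member. It stood at 490, 509 and 492 CPM in untreated and 369, 357 and 383 CPM in MGO libraries (log2 fold change -0.43, SE 0.0359, edgeR adjusted p = 2.09e-12). Its protein is controlled mainly by degradation, which RNA counts do not measure.

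**Figure D4:**
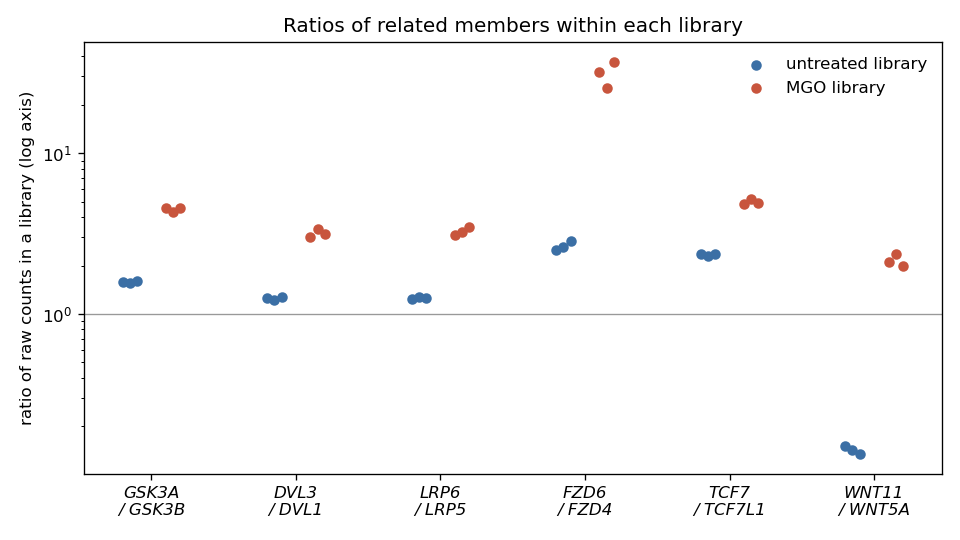
Ratio of raw counts of 6 pairs of members within each library, on a log axis, with 3 untreated and 3 MGO libraries per pair. In every pair the 3 MGO ratios lie above the 3 untreated ones, with the widest gaps for FZD6 over FZD4 and WNT11 over WNT5A.

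Of the 4 TCF/LEF factors, which carry beta-catenin to DNA, 3 fell and TCF7 did not pass. TCF7L1, mainly a repressor, went from 18.4, 18.5 and 17.9 CPM to 9.01, 8.21 and 8.69 CPM (log2 fold change -1.08, SE 0.0739, edgeR adjusted p = 1.34e-14). LEF1, mainly an activator and a beta-catenin target, went from 35.4, 34.4 and 33.5 CPM to 19.2, 19.5 and 20.9 CPM (log2 fold change -0.79, SE 0.0571, edgeR adjusted p = 5.20e-14). TCF7L2 went from 47.2, 50.04 and 51.0 CPM to 39.5, 42.8 and 40.1 CPM (log2 fold change -0.28, SE 0.0489, edgeR adjusted p = 5.95e-06). These 3 had no overlap between groups, unlike TCF7. TCF7 stood at 43.7, 42.3 and 42.4 CPM in untreated and 43.5, 42.7 and 42.5 CPM in MGO libraries (log2 fold change 0.00, SE 0.0464, edgeR adjusted p = 0.965). With library size as the only scaling TCF7 was called lower (log2 fold change -0.10, adjusted p = 0.0490), as it was with looser filters on low counts.

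The TLE corepressors, which silence TCF targets when beta-catenin is absent, gave 3 falls and 1 gene that did not pass. TLE1 went from 86.8, 84.6 and 89.4 CPM to 44.0, 40.4 and 43.1 CPM (log2 fold change -1.03, SE 0.0447, edgeR adjusted p = 1.01e-19). TLE3, the most abundant of them, went from 343, 350 and 347 CPM to 301, 315 and 330 CPM (log2 fold change -0.14, SE 0.0369, edgeR adjusted p = 0.00125). TLE4 went from 55.2, 54.8 and 56.8 CPM to 46.9, 48.5 and 47.1 CPM (log2 fold change -0.23, SE 0.0443, edgeR adjusted p = 2.53e-05). Only TLE1 of the family changed 2-fold. TLE2 overlapped between groups, at 14.8, 14.3 and 15.3 CPM in untreated and 13.6, 16.9 and 14.1 CPM in MGO libraries (log2 fold change 0.01, SE 0.0743, edgeR adjusted p = 0.929). With no low-count filter TLE2 was called lower (log2 fold change -0.18, adjusted p = 0.0327). The TLE3 call was lost when at least 1 CPM was required in every library (adjusted p = 0.0798).

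Ratios within a library were taken for 6 pairs of related members chosen after their values were seen. In each pair the MGO and untreated libraries did not overlap (two-sided exact permutation p = 0.1, also 0.1 after Benjamini-Hochberg adjustment over the 6, the smallest that 3 against 3 allows). Besides the pairs given above, FZD6 over FZD4 went from 2.51, 2.62 and 2.85 to 31.8, 25.4 and 36.9. TCF7 over TCF7L1 went from 2.37, 2.28 and 2.37 to 4.83, 5.20 and 4.89, and WNT11 over WNT5A from 0.151, 0.142 and 0.134 to 2.12, 2.37 and 1.98. Since the pairs were picked for their divergence, these ratios are a description of those pairs only, and other relatives such as WNT5A with WNT5B and SFRP1 with SFRP2 moved alike in direction.

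Other genes of the pathway, from a list of 92 measured outside the members, were more mixed. Of 88 tested, 54 fell, 24 rose and 10 were not called, and their median log2 fold change was -0.43, beside 41.2% lower and 41.8% higher over all genes. CELSR2 and VANGL1, membrane proteins of planar polarity, fell by 2.77 and 2.52 on the log2 scale, with VANGL1 at 104, 102 and 99.5 CPM in untreated and 16.9, 17.3 and 19.1 CPM in MGO libraries. APCDD1, a membrane inhibitor of Wnt and itself a beta-catenin target, fell from 37.5, 39.0 and 37.7 CPM to 4.42, 4.56 and 6.51 CPM (edgeR adjusted p = 2.50e-23). CXXC4, an inhibitor that binds Dishevelled, fell by 2.07. Among genes averaging at least 5 CPM, the largest rises were those of HIC1, a zinc finger repressor that restrains TCF-driven transcription (2.46 ± 0.190 to 16.1 ± 1.04 CPM, SD, n = 3 each), and CELSR3, a relative of CELSR2 (2.91 ± 0.0641 to 14.7 ± 2.22 CPM). The related CELSR2 and CELSR3 thus went in opposite directions.

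Known beta-catenin targets fell more often than they rose. Among the members, 8 are textbook targets (AXIN2, LGR5, NKD1, RNF43, ZNRF3, LEF1, TCF7 and DKK1), a grouping made after their values were seen. Of these 6 fell and 2 were not called, over a range of log2 fold changes from -0.98 to 0.00. Outside the members, 40 listed targets were tested, of which 29 fell, 7 rose and 4 were not called, their median was -1.18 on the log2 scale, and 22 fell at least 2-fold. Over all genes 41.2% were called lower, 41.8% higher and 16.7% at least 2-fold lower. Among those averaging at least 5 CPM, ZBTB7C, a transcription factor, fell by 2.85, the receptor TNFRSF19 by 2.67, the cell adhesion gene NRCAM by 2.17 and the transcription factor SP8 by 2.12 on the log2 scale. FOSL1, a Fos family factor that also responds to stress, was the largest exception, at 1.596, 1.30 and 1.53 CPM in untreated and 36.4, 42.4 and 43.0 CPM in MGO libraries (log2 fold change 4.79). Many listed targets answer to other pathways as well. APCDD1 and NOTUM stand in both lists, and NOTUM was not called (log2 fold change -0.01, edgeR adjusted p = 0.962). The plot of all fold changes places the members and both lists to the left of the transcriptome.

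**Figure D5:**
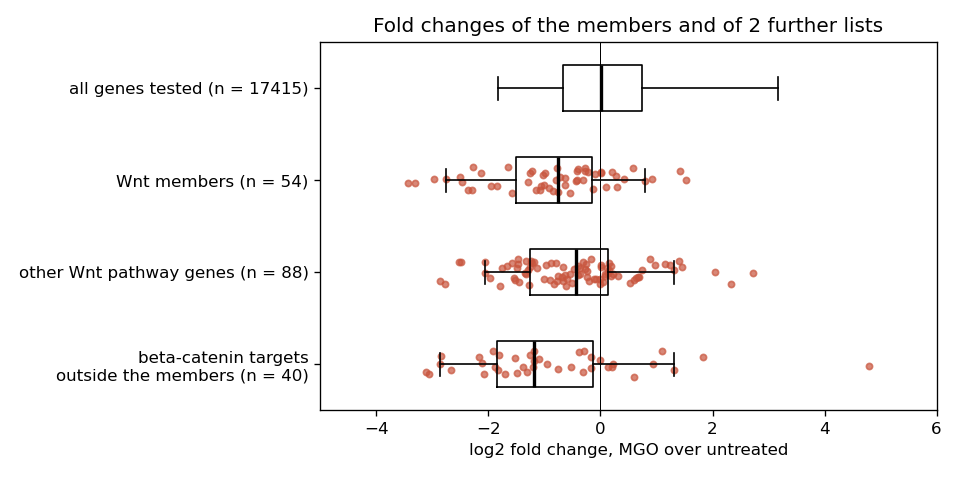
Log2 fold change in MGO over untreated for all 17415 tested genes, the 54 members, 88 other pathway genes and 40 beta-catenin targets, as boxes (quartiles and median, whiskers at the 5th and 95th percentile) with a point per listed gene. Medians are 0.01, -0.77, -0.43 and -1.18.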

How the data were processed

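Poly(A) RNA of 6 libraries was sequenced. The authors deposited unnormalized counts for each gene, made with Trim Galore, STAR 2.4, Picard and HTSeq 0.9.1 on hg38, per the submitters' processing notes. The annotation and strand setting were not stated in those notes. The members and lists were chosen with earlier results of these data known. Counts were tested in R 4.3.3 with edgeR 4.0.16 (low-count filter filterByExpr, TMM scaling, robust quasi-likelihood fit, Benjamini-Hochberg adjustment over all 17415 genes tested, threshold 0.05), without a replicate block. The procedure was tested on simulated data in which few genes changed, so that test does not cover data where most genes moved. RPKM and positions used exons of GENCODE 29, which may not be the annotation counted, so RPKM is approximate. Named in full were, in each role, the 3 called members with the largest change averaging at least 1 CPM, the most counted member and those not called. The 6 most changed list genes averaging at least 5 CPM were named too. Members outside that rule were chosen after their values were seen. Upstream sequences come from RefSeq, and 28 of 54 tested members had a single listed promoter, so promoters were not compared between sets. Gene symbols turned into dates by spreadsheet software made up 29 rows. Library totals set the precision: a change of a gene with few counts is detectable only if large. Replicates were not duplicates, since every pair differed by more than sampling noise. Alternatives used limma 3.58.1 and DESeq2 1.42.0. Only numbers 1 and 4 occur in both groups, and the labels do not say what a number marks, so libraries were not treated as pairs.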

Additional observations from a re-analysis of the deposited data

How the results depend on the processing

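Of 51 called members, 45 kept sign and call in all 19 alternatives that tested them other than the test against a 1.5-fold change, and 6 did not (WNT10B, PORCN, FZD6, DKK2, APC and TLE3). The sign of FZD6 turned with no low-count filter (log2 fold change -0.0749) and with a filter of 10 counts in total (-0.0045). FZD6 was not alone in moving down with no low-count filter. PORCN went from 0.20 to 0.02, APC from 0.27 to 0.09, TCF7 from 0.00 to -0.18 and TLE2 from 0.01 to -0.18. Scaling factors were computed anew on the genes kept by each filter, so calls of small changes depended on that choice. The cause was not tested. Against a 1.5-fold change, a stricter question by construction, 3 members were higher and 28 lower, and 12 other pathway genes were higher. Of all genes, 4363 were higher and 3942 lower in that test. Across every setting, 12 to 24 other pathway genes were higher and 36 to 60 lower. For the listed targets the ranges were 5 to 8 higher and 24 to 29 lower. Leaving out 1 library at a time gave 7 to 9 members higher and 40 to 41 lower, 19 to 21 other pathway genes higher and 54 to 56 lower, 6 to 7 targets higher and 29 lower, 6947 to 7441 of all genes higher and 6919 to 7444 lower, and a mitochondrial difference of 1.04 (without MGO library 1) to 2.45 percentage points. With the replicate number as a fixed replicate block, 39 members were lower and 8 higher, and with a random replicate block 40 and 10. The fixed block ended the calls of WNT10B (adjusted p = 0.102), PORCN (0.0828), FZD6 (0.182) and TLE3 (0.0633). In that fit only libraries whose number occurs in both groups inform the fold change, so it rests on fewer libraries. Deviations of same-numbered libraries correlated at 0.0204 for number 1 and -0.0078 for number 4. With 3 libraries a group, these correlations cannot show whether a number marks a shared batch. In both groups the pairs holding library 1 differed more than the pair without it. Chi-square per degree of freedom was 6.99 and 6.39 against 1.88 in untreated, and 7.44 and 14.7 against 3.43 in MGO. Whether the libraries numbered 1 share a batch was not tested. With library size as the only scaling, the median of all genes moved by -0.11 and 42 members were lower and 8 higher. With no low-count filter 35722 genes were tested, many with few counts, and the median over this larger set moved by 0.19. The median of the members, 58 of which were then tested, moved by -0.12, with 43 lower and 7 higher. Thinning the untreated libraries to the MGO depth gave 40 lower and 9 higher. Leaving out both libraries numbered 1 was chosen after seeing the data.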

Other observations

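Frizzled genes differ in gene structure. FZD1, FZD2, FZD5, FZD7, FZD8 and FZD9 have 1 coding exon each and all 6 fell, with a median log2 fold change of -1.55. Of those with several, FZD4 (2 coding exons), FZD3 (6) and FZD6 (6) had log2 fold changes of -3.43, -1.15 and 0.11. The share at least 2-fold lower was 66.7% in both sets. Of all genes tested, 41.2% were called lower and 16.7% at least 2-fold lower. A link between exon number and fold change was not tested.

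Several WNT genes lie side by side. WNT9A and WNT3A on chromosome 1, 59152 bases apart, had log2 fold changes of -1.0002 and -1.30. In the other neighbouring pairs, WNT10B with WNT1, WNT3 with WNT9B and WNT6 with WNT10A, the second gene held too few counts to be tested.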
